A study of Oryctolagus cuniculus with 16 samples.

Results

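The cytokine, chemokine and receptor genes of the rabbit basilar artery were followed across 2 wall layers, 2 locations and 2 flow conditions. Members were taken by gene symbol: chemokine ligands (CCL, CXCL, CX3CL), their receptors (CCR, CXCR, CX3CR), interleukins and their receptor chains, colony-stimulating factors and receptors, tumour necrosis factor (TNF) superfamily ligands and receptors, and LIF, OSMR and IL6ST. A further 2 CXCL symbols were left out of the rule. Of the 13788 symbols in the count table, 119 matched, and 96 of these had a count in at least 1 library and are the members described here, out of 11925 symbols with a count.

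The study raised flow in the basilar artery of female New Zealand white rabbits by tying off both common carotid arteries, and compared these ligated rabbits with sham-operated rabbits of normal flow 24 h after surgery. Rabbits 3 and 4 were sham operated and rabbits 5 and 6 were ligated. From each rabbit, laser microdissection gave intima and media from the straight trunk of the basilar artery (BA) and from the basilar terminus (BT), the bifurcation at its end, and each piece was sequenced as 1 library. This made 16 libraries in 8 groups of 2. The 4 libraries of a rabbit share the animal, so every flow comparison rests on 2 rabbits against 2. Intimal pieces carried some smooth muscle, so an intimal library is a mixture of both layers. In bulk tissue of this kind, fewer cells of a type and less RNA per cell cannot be told apart.

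Cytokines are secreted proteins that carry signals between cells of the vessel wall and blood cells, and chemokines are the subgroup that directs the migration of leukocytes. A ligand acts through its receptor chains, and many families also hold soluble or decoy receptors that bind the ligand without passing on the signal. In arteries, endothelial and smooth muscle cells can make both, and most of these genes are silent or weakly transcribed until the cells are stimulated, often through the transcription factor NF-kB. The IL6 family signals through the shared chain IL6ST (gp130) and the JAK-STAT pathway, and the TNF superfamily through adaptor proteins that lead to NF-kB and cell death pathways.

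The libraries held 5211886 to 17686105 counts in the intima and 2154863 to 11219236 in the media. Levels are given as CPM, the usual measure of counts relative to library size, scaled by TMM (trimmed mean of M values) over all 16 libraries. Levels of single genes are not read against each other, because CPM takes no account of transcript length. Ranks by CPM served to choose members to name and to give the highest marker of a list. Sums and shares of CPM over several genes describe counts, not transcripts. A count of 0 in a library allows a level of up to 3 counts, which is 0.169 to 0.513 CPM in the intima and 0.283 to 1.58 CPM in the media, for counting error only. These limits overlap between layers and are wide relative to many of the cytokines.

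Only a small part of the module was detected throughout. There were 13 members with more than 3 counts in all 16 libraries: the ligands IL18 and IL17B, the IL18 antagonist IL18BP, the receptor chains IL1R1, IL6R, IL6ST, OSMR, IL13RA1, IL17RD and IL9R, and the TNF receptor family members TNFRSF1A, TNFRSF11B and TNFRSF12A. No chemokine ligand, chemokine receptor or colony-stimulating factor was among them. By contrast, 21 members passed 3 counts in 1 library only and 16 in none. The 23 symbols with no count included IL4, IL13, IL17A, IL21 and IL22, which are cytokines of T cells, and CCR1, CCR3, CCR6 and CXCR6, which are leukocyte chemokine receptors. Other genes of these kinds did have counts. IL2 had 7 and 10 counts in the sham BA media of rabbits 3 and 4, and IL5 had 14 in the BA media of rabbit 3. The receptors CCR4, CCR7, CCR9, CXCR4 and CX3CR1 also had counts.

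**Figure D1:**
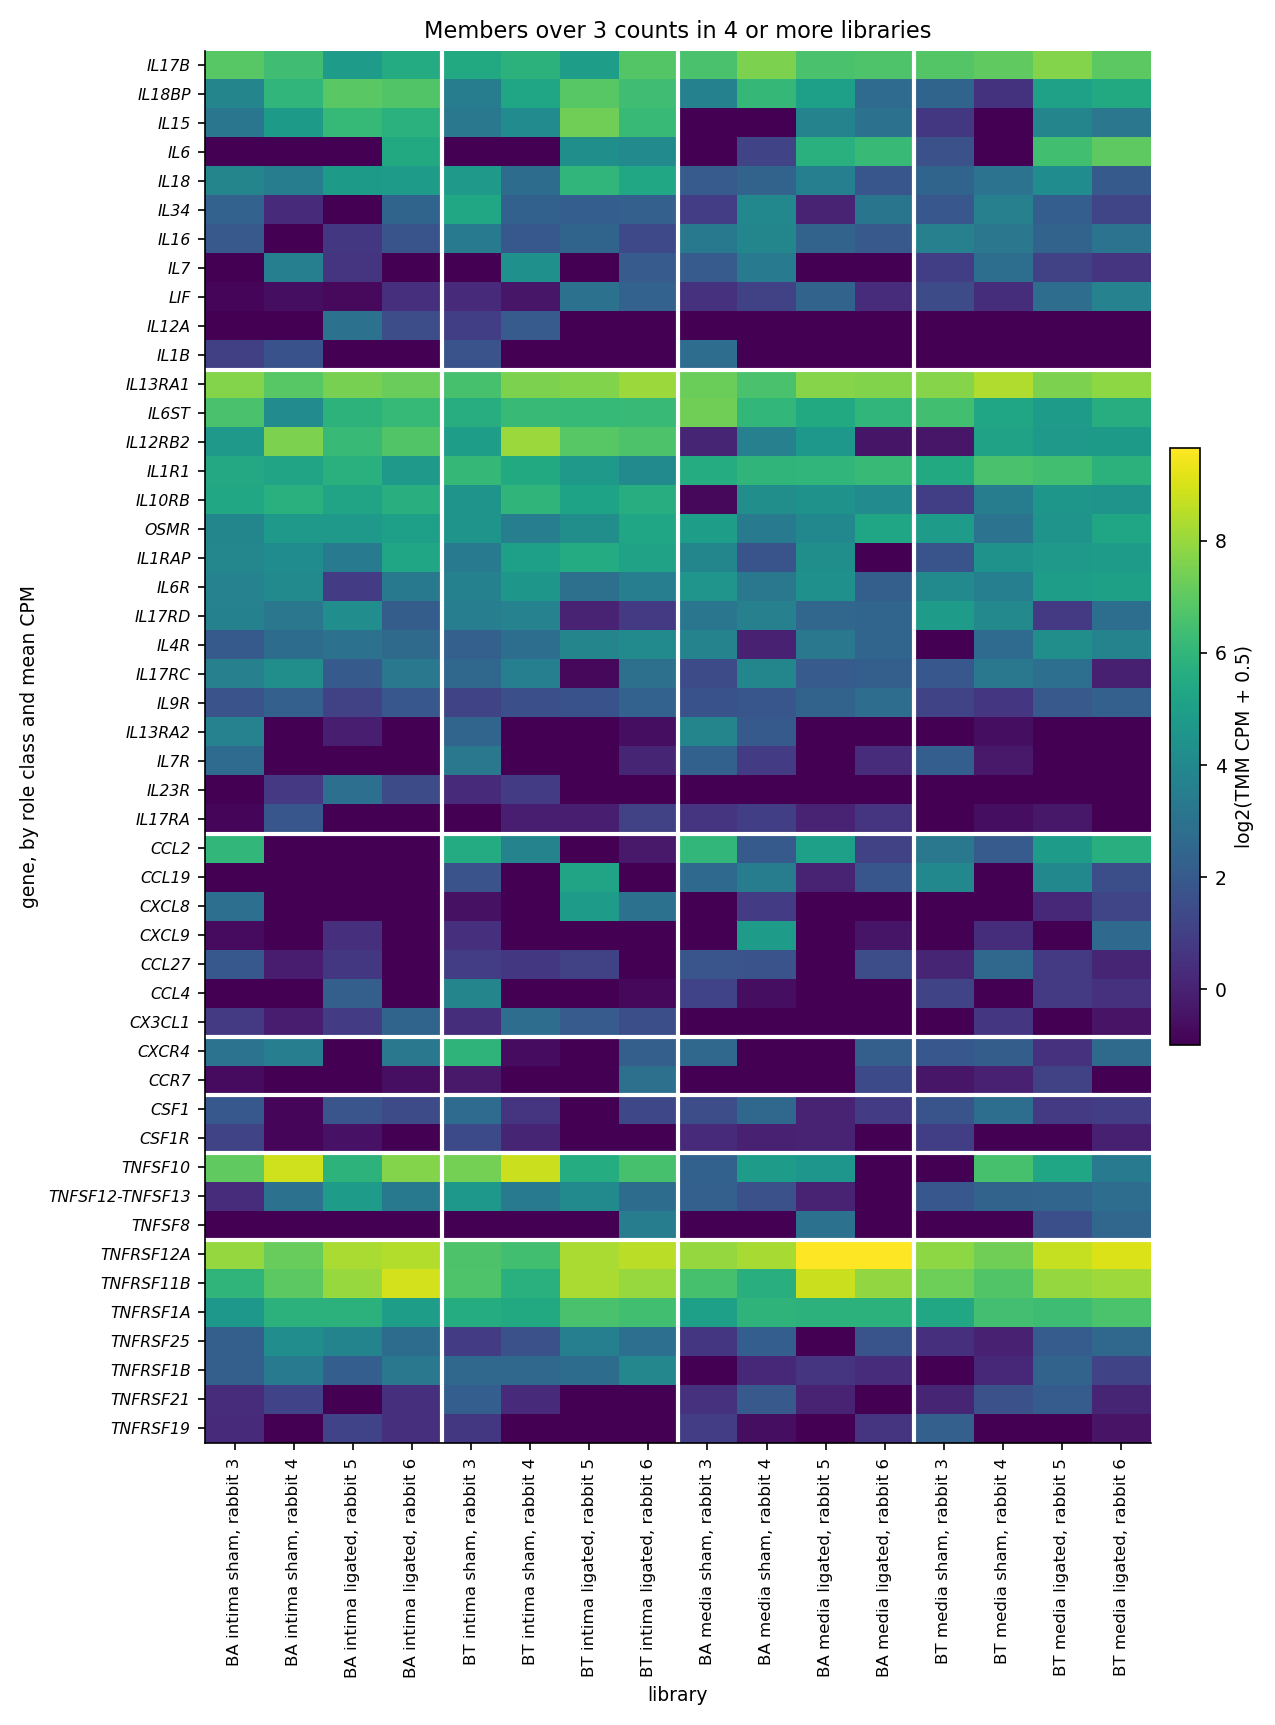
Levels of the 48 members with more than 3 counts in at least 4 of the 16 libraries, as log2(TMM-scaled CPM + 0.5), with members in rows by role and libraries in columns by layer, location and flow. The 13 members above 3 counts in all 16 libraries are interleukins, receptor chains and TNF receptor family members, while the chemokine rows are filled in some libraries only.

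One library stood apart from the others in this module and is named before the results. The BT intima of sham rabbit 3 held 60 members above 3 counts, against 25 to 42 in each of the other 15 libraries. Over all genes it also held the most above 3 counts, 9822 against 7310 to 9035 in the others. Its total of 12590707 counts was below the 17686105 counts of the BA intima of rabbit 3, which held 40. It was the only library above 3 counts for 9 members: the chemokines CCL21 and CXCL13, the chemokine receptor CCR4, the interleukins IL10 and IL26, the receptor chains IL10RA, IL17RE and IL27RA, and TNFSF11 (RANKL). CXCR4, the receptor of CXCL12 on leukocytes and endothelial tip cells, reached 60.3 CPM there and 0 to 11.3 CPM in the other intima libraries. CX3CR1, the fractalkine receptor of macrophages and microglia, stood at 7.85 CPM there, at 4.23 CPM in the BA intima of the same rabbit, and at 0 CPM in the other 6 intima libraries.

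Markers of other cell types were measured beside these genes. Some lists include members: CSF1R is in the macrophage and microglia list, IL7R in the T and NK cell list and CSF3R in the neutrophil list. The macrophage and microglia list (12 of 12 markers in the table, TYROBP the highest in CPM) summed to 1120 CPM in the BT intima of rabbit 3, with all 12 above 3 counts. It summed to 523 CPM in the BA intima of that rabbit, to 72.3 to 206 CPM in the other intima libraries and to 80.5 to 353 CPM in the media. In the BA intima, CD14 made up 70.2 of 77.3 CPM in rabbit 4, 70.6 of 206 in rabbit 5 and 101 of 105 in rabbit 6. In the BT intima it made up 58.9 of 144 CPM in rabbit 4 and 54.7 of 72.3 in rabbit 6. The BT intima of rabbit 5 held 185 CPM, with CD14 at 121 CPM, LYVE1 at 64.0 CPM and 10 markers at 0. T and NK cell markers summed to 0 to 20.9 CPM and B cell markers to 0 to 3.74 CPM over the 16 libraries. Across its 4 libraries, rabbit 3 was the only rabbit with more than 3 counts for 14 of the 80 members that passed 3 counts anywhere, or 17.5%, where the same held for 4.56% of all genes. For rabbit 4 this was 6.25% of members against 2.38% of all genes, for rabbit 5 it was 3.75% against 0.797% and for rabbit 6 it was 1.25% of both. Rabbit 3 also had the highest total, 45474467 counts, against 24439584 to 32502425 in the others. Members called below are also given without it. The part of these cells in the result was not tested.

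**Figure D2:**
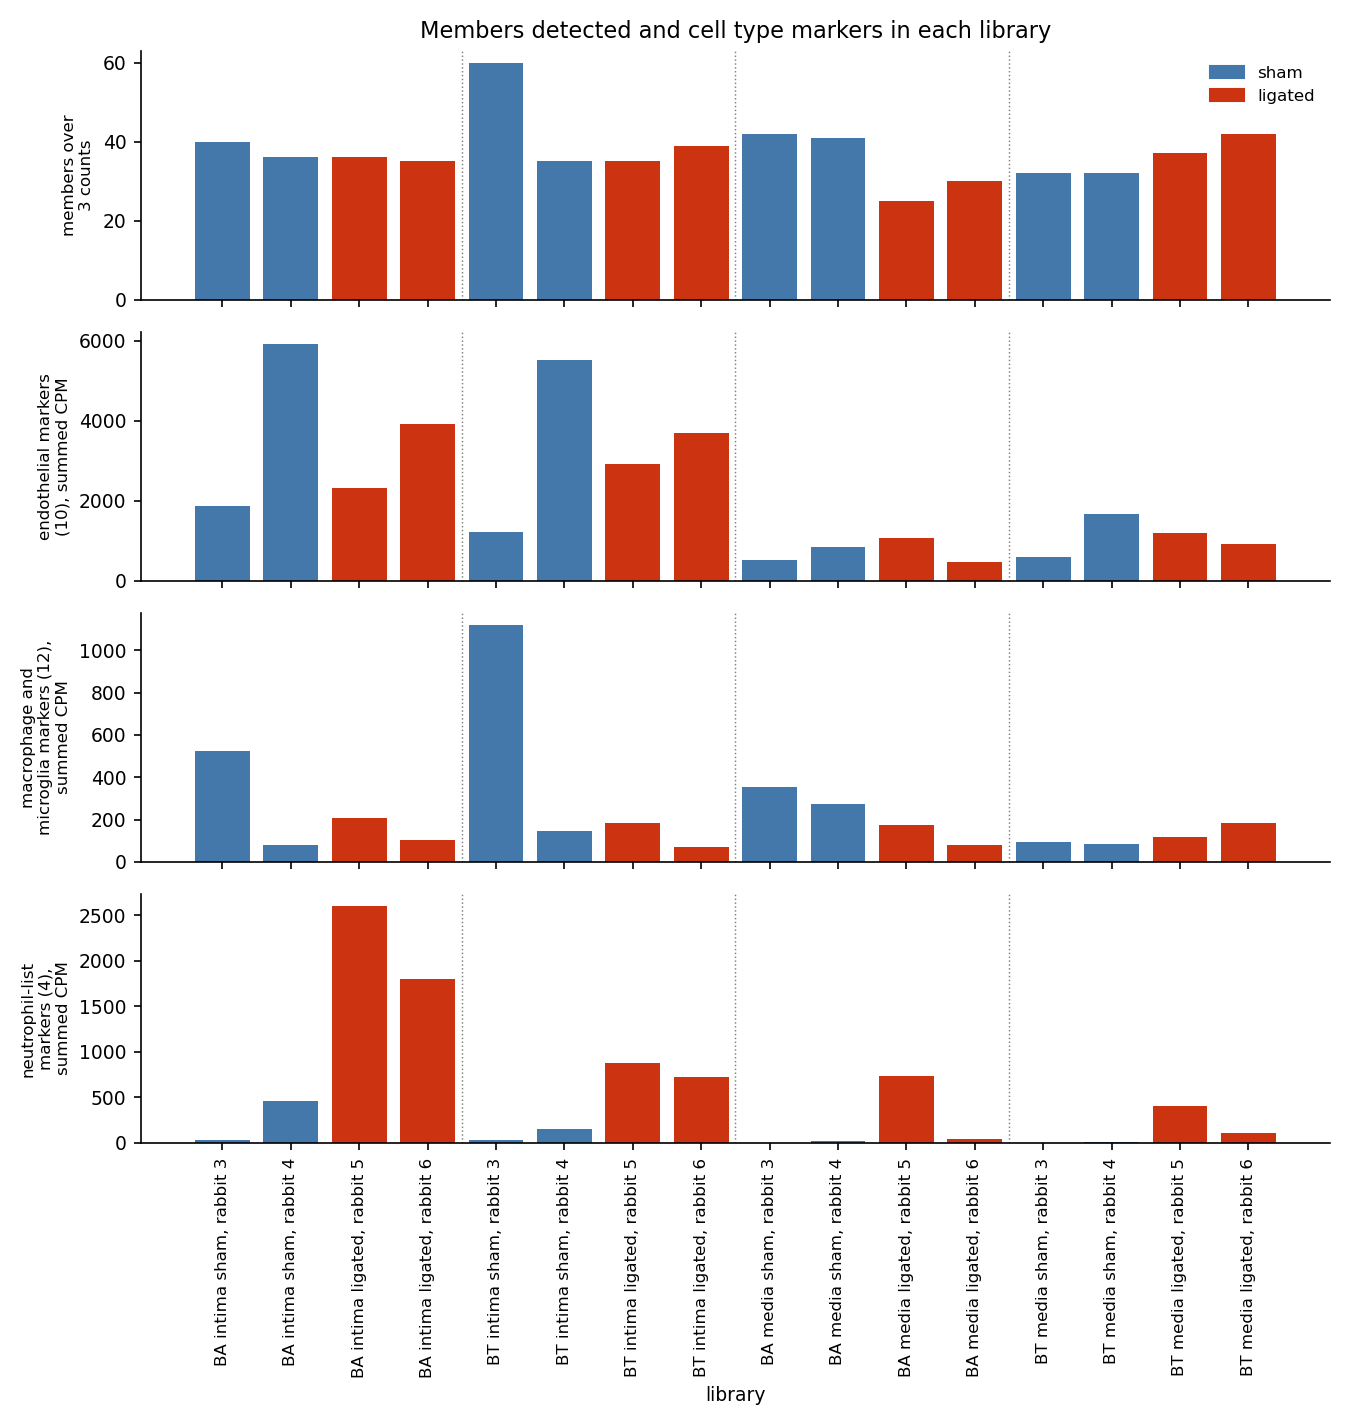
For each of the 16 libraries, the number of members above 3 counts and the summed CPM of the endothelial, macrophage and microglia, and neutrophil marker lists. The BT intima of sham rabbit 3 has the most members, 60, and the highest macrophage and microglia sum, 1120 CPM.

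The labels of the layers were checked against markers. The endothelial list (10 of 10 markers, VWF the highest in CPM) summed to 1230 to 5930 CPM in the intima and 461 to 1670 CPM in the media, and overlapped in that the lowest intima library, the BT of rabbit 3, was below the highest media library, the BT of rabbit 4. The smooth muscle list (6 of 8 markers in the table, ACTA2 the highest in CPM) summed to 10600 to 74400 CPM in the intima and 67100 to 118000 CPM in the media. The intima was therefore richer in endothelial RNA and poorer in smooth muscle RNA, but neither layer was pure.

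The main question was which of these genes changed with flow, tested in each of the 4 tissues with edgeR's quasi-likelihood test and Benjamini-Hochberg adjustment over all genes of that fit, as for every adjusted p below. Genes were tested if the mean of either group was above 1 CPM. In the media of the BT, 2 of 42 members tested passed an adjusted p of 0.05, both higher after ligation: IL6 and the IL18 antagonist IL18BP. Over all genes, 2.35% were called in that fit and 1.16% were called as higher. The members' share of 4.76% rests on 2 genes and is not read as a property of the module. No member was called in the other tissues. This was 0 of 48 tested in the BA intima and 0 of 56 in the BT intima, where 0% of all genes were called, and 0 of 43 in the BA media, where 0.807% were. At an unadjusted p below 0.05 there were 6, 13 and 6 members in these tissues and 10 in the BT media, and DESeq2 called 3, 9, 5 and 4. Leaving out 1 rabbit moved some of these counts, with the remaining library of that arm taken to vary like the others. The BT media fit called 9 members without rabbit 3, 9 without rabbit 4, 3 without rabbit 5 and 1 without rabbit 6. The BA intima fit called 1 without rabbit 3 and 3 without rabbit 4. The share of all genes called by DESeq2 and by the fits without 1 rabbit is not given here. The members' counts in those fits are therefore not read as a result about the module. At an unadjusted p below 0.05 in the main fits, the BA intima had 12.5% of members against 5.95% of all genes. The BT intima had 23.2% against 11.6%. The shares for the media were 14% against 13.6% in the BA and 23.8% against 16% in the BT.

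IL6, the founding ligand of the gp130 family and an acute-phase cytokine, was nearly absent from the sham artery. In the intima all 4 sham libraries held 0 counts, and the ligated libraries held 0 and 43.6 CPM in the BA and 19.4 and 16.8 CPM in the BT. In the media the sham libraries stood at 0 and 1.80 CPM in the BA and at 2.61 and 0 CPM in the BT. The ligated media libraries stood at 53.8 and 71.8 CPM in the BA and at 85.1 and 127 CPM in the BT. IL6 thus passed 3 counts in 2 of 8 sham libraries and 7 of 8 ligated libraries, and the one ligated library without it was the BA intima of rabbit 5. Only there did the ligated and sham groups of a tissue overlap.

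In the BT media, IL6 rose from 1.31 ± 1.85 to 106 ± 29.9 CPM (SD, n = 2 each), an 80.9-fold difference of means and a log2 change of 6.58 (SE 1.01, adjusted p = 0.00676). Without rabbit 3 the fitted log2 change was 12.32, which is no measure of a fold because the remaining sham library held no count. DESeq2 gave an adjusted p of 0.0689 and a fit over all 16 libraries one of 0.275. In the BA media the log2 change was 6.27 (SE 1.30, adjusted p = 0.0749), which missed the threshold at a 69.8-fold difference of means. The 80.9-fold and 69.8-fold values each take a sham count of 0 as a level of 0. The other sham library held 9 counts in the BT media and 11 in the BA media. In the intima, where sham libraries held no count, the ligated mean was at least 56.4-fold higher in the BT (adjusted p = 0.247) and at least 111-fold higher in the BA (adjusted p = 0.734), against a floor of 3 counts per library. In the BA intima the difference rested on the ligated library of rabbit 6 alone. IL6 passed the test in 1 of the 4 tissues. Of the alternative fits, 4 of 11 called it in the BA intima, 3 of 13 in the BT intima, 3 of 12 in the BA media and 10 of 12 in the BT media, DESeq2 and the fit of all genes with a count among those of the first 3 tissues.

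The receptor chains for IL6 and its relatives were present in both flow groups and none was called. IL6ST, the shared signalling chain, was detected in every library at 16.9 to 96.0 CPM in the intima and 28.4 to 160 CPM in the media. Its log2 change with ligation ran from −1.07 (SE 0.52, adjusted p = 0.416) in the BA media to 0.25 (SE 0.45, adjusted p = 0.863) in the BT intima. IL6R, the chain that binds IL6, stood at 16.0 and 11.6 CPM in the sham BT media and 31.2 and 32.7 CPM in the ligated BT media, which do not overlap, at a log2 change of 1.23 (SE 0.65, adjusted p = 0.384). In the intima the ligated libraries lay below the sham libraries without overlap, at 12.6 and 16.4 CPM in sham and 1.38 and 9.41 CPM in ligated BA, and at 12.3 and 24.7 CPM in sham and 7.17 and 11.3 CPM in ligated BT. The log2 changes of IL6R were −1.43 (adjusted p = 0.886) in the BA intima and −0.42 (adjusted p = 0.886) in the BA media, with the BT intima between them (adjusted p = 0.665), so its estimates had no common direction. OSMR, the partner chain for oncostatin M, was estimated higher in all 4 tissues, with log2 changes of 0.42 to 0.77 and adjusted p-values of 0.649 to 0.976. LIF, a further ligand of the family, was at 2.32 and 0.806 CPM in the sham BT media and at 6.54 and 12.7 CPM in the ligated BT media (adjusted p = 0.368).

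IL18BP, a secreted protein that binds IL18 and keeps it from its receptor, was the other gene called in the BT media. There it was at 4.94 and 0.968 CPM in the sham and at 34.0 and 43.9 CPM in the ligated libraries. It rose from 2.95 ± 2.81 to 39.0 ± 7.05 CPM (SD, n = 2 each), 13.2-fold, with a log2 change of 3.79 (SE 0.88, adjusted p = 0.0449). The call sat just inside the threshold: without rabbit 5 the adjusted p was 0.105 and without rabbit 6 it was 0.305, whereas without rabbit 3 the log2 change was 5.31 (adjusted p = 0.000168). With RLE scaling the adjusted p was 0.0525, with edgeR's own expression filter 0.0643 and in a fit over all 16 libraries 0.201.

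The same gene did not show that pattern in the BA media, where sham libraries held 12.2 and 68.0 CPM and ligated libraries 31.6 and 6.03 CPM, so that the groups overlapped (log2 change −1.09, adjusted p = 0.648). In the intima the sham levels were 13.9 and 64.3 CPM in the BA and 10.5 and 38.6 CPM in the BT. After ligation they were 121 and 107 CPM in the BA and 118 and 82.3 CPM in the BT. Both ligated libraries lay above both sham libraries at each location, and the fits gave adjusted p-values of 0.842 and 0.363. IL18 itself stood at 6.30 to 27.0 CPM in the sham intima and 27.6 to 63.1 CPM in the ligated intima. IL18R1, the ligand-binding receptor chain, had 5 counts in the BA media of rabbit 4 and none elsewhere, and the accessory chain IL18RAP had no count.

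IL15 is a cytokine that sustains NK cells and memory T cells and is also made by endothelium and muscle. Of the interleukins tested in all 4 tissues, only IL15 had ligated libraries above the sham libraries throughout. In the intima it stood at 8.45 and 27.5 CPM in the sham BA, 69.3 and 55.3 CPM in the ligated BA, 9.20 and 17.0 CPM in the sham BT, and 160 and 71.6 CPM in the ligated BT. In the media it stood at 0 and 0 CPM in the sham BA, 13.2 and 7.34 CPM in the ligated BA, 1.16 and 0 CPM in the sham BT, and 13.7 and 8.88 CPM in the ligated BT. Both ligated libraries lay above both sham libraries in each of the 4 tissues.

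The fits did not call IL15 in any of them, whereas 3 of 13 alternative fits did in the BT intima, 3 of 12 in the BA media, 1 of 12 in the BT media and 0 of 13 in the BA intima. The mean was 3.46-fold higher in the BA intima (log2 change 1.81, SE 0.71, adjusted p = 0.806) and 8.85-fold higher in the BT intima (3.16, SE 0.64, adjusted p = 0.265). In the media it was at least 26.6-fold higher in the BA (adjusted p = 0.121) and 19.4-fold higher in the BT (log2 change 4.39, adjusted p = 0.216). The 19.4-fold value rests on 4 counts in sham rabbit 3 and takes the count of 0 in sham rabbit 4 as a level of 0. The study itself listed IL15 as significantly higher after ligation in the BT intima, but not in the BA intima. The cause of the difference from the main fits was not tested. IL15RA, the private receptor chain of IL15, and the shared IL2 receptor chains were not analysed here.

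In the TNF receptor family, TNFRSF12A and TNFRSF11B stood higher in the ligated than in the sham libraries of all 4 tissues, without a call in any. TNFRSF12A (Fn14) is the receptor of the ligand TWEAK and is made by injured and proliferating cells. In the media it stood at 246 and 301 CPM in the sham BA, 802 and 782 CPM in the ligated BA, 231 and 160 CPM in the sham BT, and 414 and 542 CPM in the ligated BT. In the intima it stood at 247 and 143 CPM in the sham BA, 310 and 347 CPM in the ligated BA, 102 and 86.4 CPM in the sham BT, and 317 and 372 CPM in the ligated BT. No ligated library fell within the range of the sham libraries of its tissue. The log2 changes were 1.55 (SE 0.30, adjusted p = 0.0578) in the BA media, 1.30 (SE 0.33, adjusted p = 0.0662) in the BT media, 1.87 (SE 0.39, adjusted p = 0.265) in the BT intima and 0.75 (adjusted p = 0.862) in the BA intima. TNFRSF12A was called by 5 of 12 alternative fits in the BT media, 3 of 12 in the BA media and 4 of 13 in the BT intima, DESeq2 among them in each. The TWEAK gene TNFSF12 is counted here only as the read-through symbol TNFSF12-TNFSF13, which shares reads with its neighbour and is uncertain.

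TNFRSF11B (osteoprotegerin), a secreted decoy that binds RANKL and TRAIL, had the same separation. In the media it was at 94.2 and 51.7 CPM in the sham BA, 439 and 244 CPM in the ligated BA, 158 and 109 CPM in the sham BT, and 249 and 271 CPM in the ligated BT. In the intima it was at 62.1 and 126 CPM in the sham BA, 254 and 481 CPM in the ligated BA, 105 and 53.6 CPM in the sham BT, and 316 and 254 CPM in the ligated BT. Log2 changes were 2.23 (SE 0.46, adjusted p = 0.0718) in the BA media, 1.97 (SE 0.55, adjusted p = 0.685) in the BA intima, 1.84 (SE 0.49, adjusted p = 0.281) in the BT intima and 0.97 (SE 0.34, adjusted p = 0.183) in the BT media. Alternative fits called TNFRSF11B in 3 of 12 cases in the BA media and 3 of 13 in the BA intima. Its ligand RANKL (TNFSF11) had 56 counts in the BT intima of rabbit 3 and none in any other library.

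IL15, TNFRSF12A and TNFRSF11B were the only members with both ligated libraries above both sham libraries in all 4 tissues. That was 3 of the 32 members tested in every tissue, or 9.38%, where the share of all genes was 3.68%. No member lay below in all 4, where 3.11% of all genes did. These shares describe the tables and carry no test, since the 4 tissues come from the same rabbits. Within the intima, members lying above without overlap numbered 10 of 48 for the BA (15.4% of all genes) and 16 of 56 for the BT (20.4%), and members lying below 6 (20%) and 13 (25.6%). Within the media, 7 of 43 lay above for the BA (21%) and 18 of 42 for the BT (25.4%), while 12 (26%) and 4 (23.1%) lay below.

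**Figure D3:**
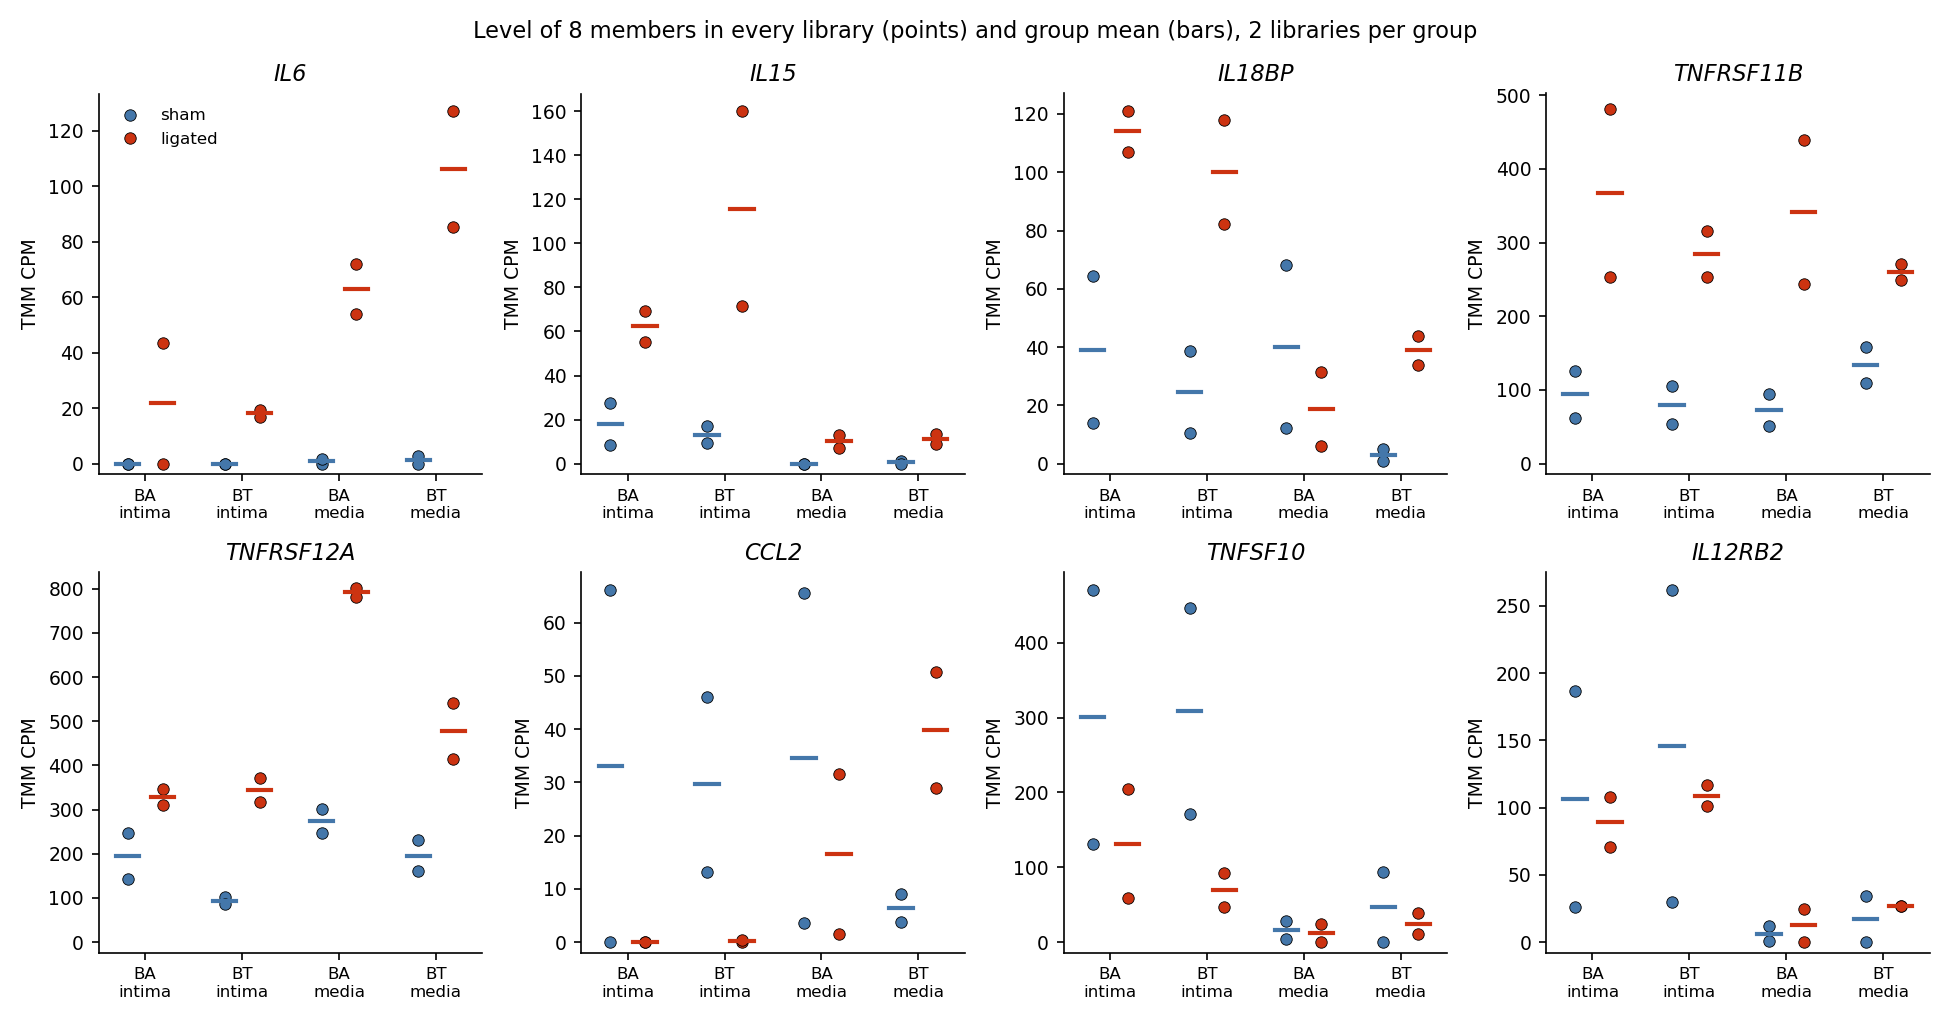
Level of 8 members in each library, in TMM-scaled CPM, grouped by tissue and flow, with 1 point per rabbit and a bar at the mean of the group (n = 2). The ligated points of IL15, TNFRSF11B and TNFRSF12A lie above the sham points in all 4 tissues, and IL6 is at or near 0 in the sham groups.

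The summed level of all members stood higher in the ligated than in the sham media. There the sum was 1130 ± 79.3 CPM in sham and 1840 ± 158 CPM in ligated libraries (SD, n = 4 each, from 2 rabbits), with ranges of 1050 to 1240 and 1690 to 2020 CPM. In the intima it was 1370 ± 218 CPM in sham and 1770 ± 196 CPM in ligated libraries, with values that overlapped in the BA (1240 and 1560 against 1480 and 1910 CPM) and not in the BT (1130 and 1550 against 1860 and 1830 CPM). TNFRSF12A and TNFRSF11B together made up 21.7 to 37.1% of the sum in sham media and 39.3 to 61.3% in ligated media. Without them, a removal chosen with their values known, the sums were 765 and 776 CPM in the sham and 782 and 705 CPM in the ligated BA media, which overlap. In the BT media they were 658 and 970 CPM in the sham and 1030 and 1120 CPM in the ligated libraries, which do not overlap. In the intima without the same genes, both locations overlapped. The sums were 931 and 1300 CPM in the sham and 912 and 1080 CPM in the ligated BA. At the BT they were 920 and 1410 CPM in the sham and 1230 and 1210 CPM in the ligated libraries.

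The remaining TNF family members gave smaller or less even values. TNFSF10 (TRAIL), a ligand that can trigger apoptosis, was at 171 and 446 CPM in the sham BT intima and 47.4 and 92.6 CPM in the ligated BT intima, a log2 change of −2.14 (SE 0.61, adjusted p = 0.305). TNFRSF1A, the main receptor of TNF, was detected in every library at 25.4 to 99.8 CPM, with no call, while TNF had counts in 2 of the 16 libraries, at 1.06 and 2.13 CPM. TNFSF8 (CD30 ligand) was at 0 CPM in all 8 sham libraries and had counts in 4 ligated ones, at 10.5 CPM in the BT intima of rabbit 6, 7.38 CPM in the BA media of rabbit 5, and 2.49 and 5.26 CPM in the BT media.

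**Figure D4:**
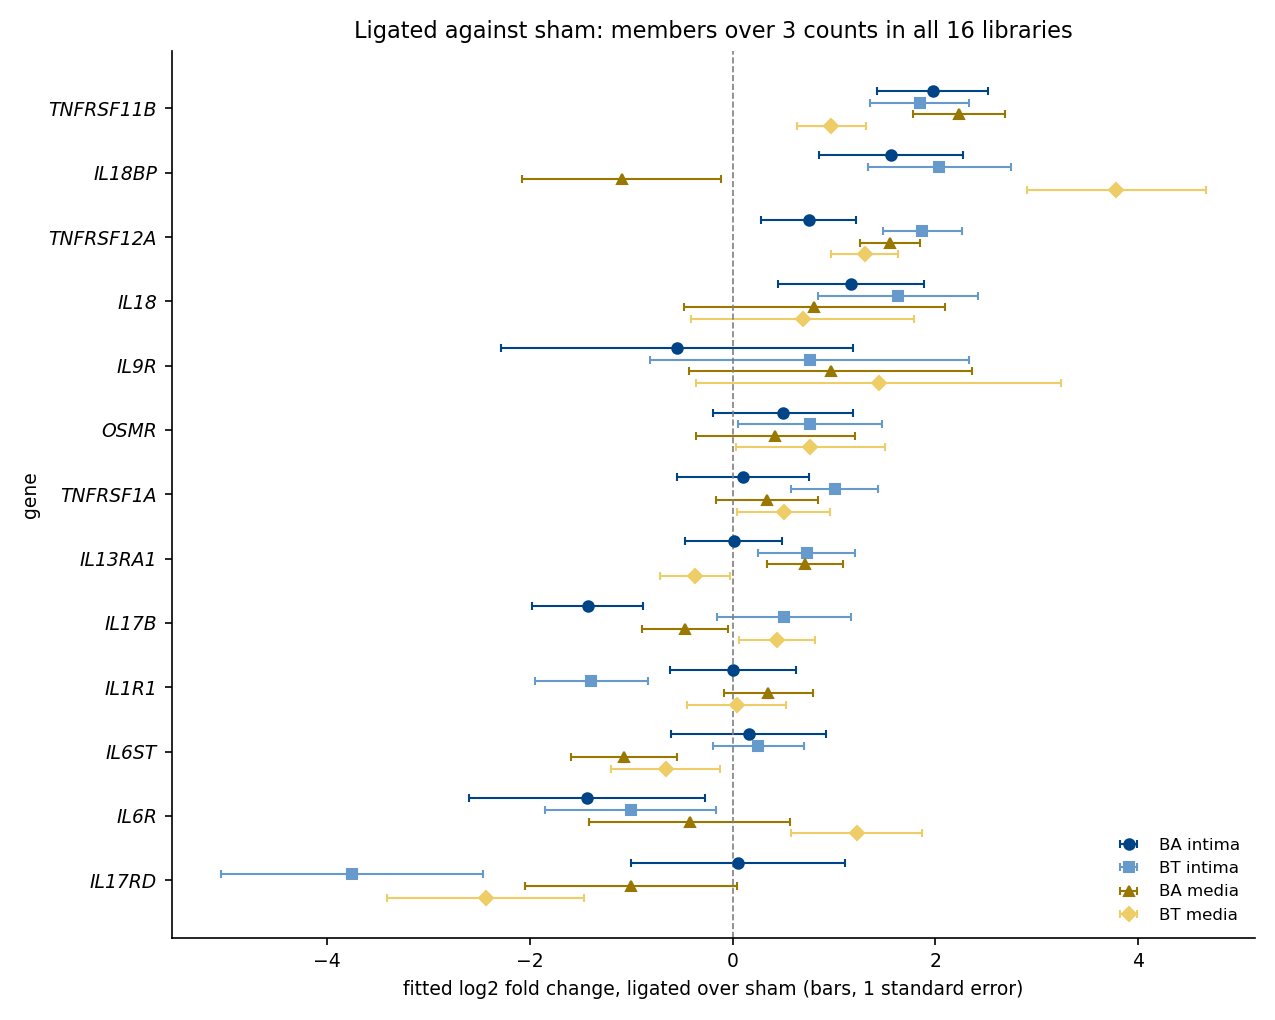
Fitted log2 change with ligation (± 1 SE, edgeR) in each of the 4 tissues for the 13 members above 3 counts in all 16 libraries. TNFRSF12A, TNFRSF11B, IL18, TNFRSF1A and OSMR lie to the right of 0 in all 4 tissues. IL6ST lies on both sides, and IL18BP passes the adjusted threshold in the BT media.

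Chemokine ligands were detected unevenly across layers, flow groups and rabbits. CCL2 (MCP-1), which recruits monocytes, was at 66.2 and 0 CPM in the sham BA intima, 0 and 0 CPM in the ligated BA intima, 46.1 and 13.2 CPM in the sham BT intima, and 0 and 0.329 CPM in the ligated BT intima. In the media it was at 65.6 and 3.60 CPM in the sham BA, 31.6 and 1.57 CPM in the ligated BA, 9.01 and 3.71 CPM in the sham BT, and 29.0 and 50.8 CPM in the ligated BT. Both ligated BT libraries were below both sham ones in the intima and above them in the media. The macrophage and microglia markers also had lower estimates in the ligated BT intima for 9 of 11 tested (median log2 change −8.01) and higher ones in the ligated BT media for 7 of 9 (median 0.69), with none called. The part of these cells in the CCL2 values was not tested.

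The CCL2 mean in the BT intima was 29.7 ± 23.3 CPM in sham and 0.165 ± 0.233 CPM in ligated libraries (SD, n = 2 each), the latter from 4 counts in 1 library. The log2 change there was −7.40 (SE 1.61, adjusted p = 0.265), and the mean in the BT media was 6.27-fold higher after ligation (2.68, adjusted p = 0.0899). Neither passed the threshold in the main fits. Alternative fits called the CCL2 change with flow in 3 of 13 cases in the BT intima and 3 of 11 in the BA intima. The difference between layers in the change with flow at the BT was −10.05 on the log2 scale (SE 1.68, adjusted p = 0.368), and DESeq2 called it. In both sham intimas the higher CCL2 library was that of rabbit 3.

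Neutrophil-attracting chemokines had counts in few libraries. CXCL8 (IL8) was at 28.8 and 7.49 CPM in the ligated BT intima and at 0.203 and 0 CPM in the sham BT intima, at least 56.4-fold higher (adjusted p = 0.276). In the BA intima it was seen only in sham rabbit 3, at 6.88 CPM. In the media it was at 1.31 CPM in the BA of sham rabbit 4, at 0.623 and 1.87 CPM in the ligated BT and at 0 CPM in the other 5 libraries (adjusted p = 0.487 in the BT). CXCL5 was at 13.3 and 5.11 CPM in the ligated BT intima and 54.6 CPM in the BT media of rabbit 6, and 0 CPM in the other 13 libraries; the BT media fit gave an adjusted p of 0.0824. CCL11 (eotaxin) was at 1.25 and 20.6 CPM in the ligated BT media and 0.527 CPM in the BA media of rabbit 5. CCL19, which attracts lymphocytes and dendritic cells, was at 5.66 and 11.0 CPM in the sham BA media, 0.527 and 3.15 CPM in the ligated BA media, 15.1 and 0 CPM in the sham BT media, and 15.0 and 2.45 CPM in the ligated BT media. In the intima it had counts only in the BT of rabbits 3 and 5, at 2.84 and 36.8 CPM. CXCL9, which attracts T cells, was highest at 28.3 CPM in the BA media of rabbit 4 and at 0 to 5.73 CPM in the other 15 libraries.

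Several receptors of these chemokines were nearly absent. CXCR1 had 2 counts in 1 library, and CCR1 and CCR3 had none. The symbols CXCR2, CXCR3 and CCR2 were not analysed here, so their levels are not known. CCR7, which guides lymphocytes and dendritic cells to lymphoid tissue, reached 7.16 CPM in the BT intima of rabbit 6 and 0 to 2.10 CPM elsewhere. Of the neutrophil marker list, 4 of 8 genes were in the table and S100A9 was the highest in CPM. Its sums in sham intima were 27.9 and 461 CPM in the BA and 29.0 and 150 CPM in the BT. In ligated intima they were 2600 and 1800 CPM in the BA and 877 and 724 CPM in the BT. In the media the sums were 0 and 18.3 CPM in the sham BA, 730 and 39.3 CPM in the ligated BA, 0 and 11.8 CPM in the sham BT, and 410 and 110 CPM in the ligated BT. MPO was at 0 in every library and CSF3R had 1 count in total, so the sums rested on S100A8 and S100A9. S100A9 was higher in the ligated than in the sham libraries of each tissue, at 872 and 723 CPM against 17.1 and 133 CPM in the BT intima. S100A8 was at 11.9 and 17.3 CPM in the sham and 5.27 and 0.906 CPM in the ligated BT intima, and at 1.58 and 146 CPM in the sham and 28.5 and 0.513 CPM in the ligated BA intima, so the higher intimal sums were those of S100A9. In the media S100A8 was at 0 and 6.05 CPM in the sham BA, 26.9 and 7.34 CPM in the ligated BA, 0 and 9.52 CPM in the sham BT, and 29.0 and 41.7 CPM in the ligated BT, above the sham libraries in both tissues. Of the 2 neutrophil markers tested in the BT media, 1 was called higher after ligation. The part of neutrophils in the chemokine values was not tested.

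Colony-stimulating factors were sparse. CSF2 (GM-CSF) was at 21.0 CPM in the BT intima of ligated rabbit 5 and at 0.623 CPM in the BT media of the same rabbit, and at 0 CPM elsewhere. CSF1, the macrophage growth factor, stood at 0 to 6.77 CPM over the 16 libraries, and its receptor CSF1R at 0 to 2.10 CPM.

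Several members had lower values after ligation without being called in the main fits. Alternative fits called IL17RD in 1 of 13 cases in the BT intima and 0 of 12 in the BT media. They called IL13RA2 in 2 of 12 cases and IL7 in 0 of 12 in the BA media, and IL17B in 0 of 13 in the BA intima. IL17RD (Sef), a receptor-like protein that dampens growth factor signals, was at 11.2 and 12.6 CPM in the sham and 0.518 and 1.24 CPM in the ligated BT intima (log2 change −3.75, SE 1.29, adjusted p = 0.361). It was at 29.3 and 15.5 CPM in the sham and 1.25 and 6.66 CPM in the ligated BT media (log2 change −2.43, SE 0.97, adjusted p = 0.241). IL17B was at 118 and 83.0 CPM in the sham and 28.6 and 46.4 CPM in the ligated BA intima (log2 change −1.43, SE 0.55, adjusted p = 0.795). Its log2 changes were −0.47 in the BA media, 0.51 in the BT intima and 0.44 in the BT media, with adjusted p-values of 0.651, 0.804 and 0.605. IL7, a lymphocyte growth factor, was at 3.68 and 9.81 CPM in the sham BA media and 0 in both ligated libraries, at least 5.70-fold lower (adjusted p = 0.256). IL13RA2, the decoy receptor of IL13, was at 14.0 and 3.60 CPM in the sham BA media and 0 in both ligated libraries, at least 7.45-fold lower (adjusted p = 0.207). IL12A was seen in the ligated BA intima, at 7.24 and 2.40 CPM, and in the sham BT intima, at 1.49 and 3.66 CPM, but in no media library.

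Other members seen mostly in rabbit 3 carried low adjusted support. IL1R2 was at 11.8 and 0.146 CPM in the sham BT intima and 0 in both ligated libraries, at least 23.5-fold lower (adjusted p = 0.4). IL7R, the IL7 receptor chain of lymphocytes, was at 6.09 CPM in the BA intima of rabbit 3 and 0 CPM in the other 3 BA intima libraries (adjusted p = 0.861), and at 4.07 and 0.323 CPM in the sham BT media and 0 in both ligated libraries (adjusted p = 0.411). TNFRSF19 was at 4.36 and 0 CPM in the sham BT media and 0 and 0.234 CPM in the ligated BT media (adjusted p = 0.595). All 3 genes had their highest value in the tissue in rabbit 3.

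Fibroblast markers were measured in the same libraries. The leptomeningeal and adventitial fibroblast list (7 of 9 markers in the table, OGN the highest in CPM) summed to 22100 and 16200 CPM in the sham BA media, 5690 and 5550 CPM in the ligated BA media, 13900 and 18200 CPM in the sham BT media, and 5250 and 6430 CPM in the ligated BT media. In the intima it summed to 10200 and 3520 CPM in the sham BA, 4220 and 1080 CPM in the ligated BA, 17100 and 5440 CPM in the sham BT, and 587 and 1130 CPM in the ligated BT. Of the 7 markers, the fit of the BA media called 3 lower after ligation, that of the BT media called 1 lower and neither intimal fit called any. In the BA intima the sums overlapped between flow groups. The part of fibroblasts in the flow values above was not tested.

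Layers were compared within the 8 pairs of intima and media that came from the same rabbit and location. Of 49 members tested, 8 were called, or 16.3%, where 8.98% of all genes were called. Higher in the intima were IL15, IL18, CX3CL1, TNFSF10, TNFRSF1B and IL12RB2, and higher in the media were TNFRSF12A and IL17B. Among all genes 4.85% were called as higher and 4.13% as lower in the intima. At an unadjusted p below 0.05 there were 18 members, or 36.7%, against 22.6% of all genes. With scaling by library size alone 8 members were again called, 7 as higher and 1 as lower, since IL10RB passed and IL17B did not.

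Ligands of the intima came first. IL15 was at 8.45 (lowest), 41.4 (median) and 160 CPM (highest) in the 8 intima libraries and at 0, 4.25 and 13.7 CPM in the media. Its intima value exceeded the media value in 8 of 8 pairs, at a log2 difference of 4.07 (SE 0.73, adjusted p = 0.00584). TNFSF10 was at 47.4, 151 and 471 CPM in the intima and 0, 17.1 and 94.0 CPM in the media, higher in 8 of 8 pairs (3.70, SE 0.94, adjusted p = 0.03). IL18 was at 6.30, 27.3 and 63.1 CPM in the intima and 3.15, 4.84 and 17.5 CPM in the media, higher in 7 of 8 pairs (1.89, SE 0.45, adjusted p = 0.0231). CX3CL1 (fractalkine), an adhesive chemokine of endothelium, was at 0.374, 1.93 and 6.44 CPM in the intima and at 0, 0 and 1.13 CPM in the media, higher in 8 of 8 pairs (4.83, SE 1.19, adjusted p = 0.0269). In 3 of these pairs its intima value was below what 3 counts would be in the media library, which held none, and with 6 of 8 media libraries at 0 the fitted difference is no measure of a fold. The ranges of the layers overlapped for each of these 4 ligands.

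Receptors followed. IL12RB2, the signalling chain of the IL12 receptor, was at 26.2, 104 and 262 CPM in the intima and 0.262, 18.3 and 34.4 CPM in the media, higher in 8 of 8 pairs (log2 difference 3.57, SE 0.65, adjusted p = 0.00657). TNFRSF1B, the TNF receptor of endothelium and leukocytes, was at 4.05, 5.96 and 14.9 CPM in the intima and 0, 0.72 and 4.67 CPM in the media, higher in 8 of 8 pairs (3.43, SE 0.92, adjusted p = 0.0385). IL10RB, a chain shared by receptors for IL10, IL22 and type III interferons, was also higher in 8 of 8 pairs but missed the threshold (2.08, adjusted p = 0.0704), as did the secreted antagonist IL18BP (1.73, adjusted p = 0.0757). In all, 7 of 49 members were higher in every pair, against 5.41% of all genes, and none was lower in every pair, against 3.95%.

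In the other direction, TNFRSF12A was at 86.4, 279 and 372 CPM in the intima and 160, 357 and 802 CPM in the media, lower in the intima in 7 of 8 pairs (−0.83, SE 0.17, adjusted p = 0.0116). IL17B, a relative of IL17A made by non-immune cells, was at 28.6, 51.7 and 118 CPM in the intima and 95.5, 118 and 203 CPM in the media, lower in 7 of 8 pairs (−1.15, SE 0.29, adjusted p = 0.0297). In both genes the exception was the BA of rabbit 3. The receptor chain IL17RB had 3 counts in 1 library. The estimate for IL6 in the intima was −3.54 (SE 1.05, adjusted p = 0.0657), and that for IL1R1, the signalling receptor of IL1, was −0.85 (SE 0.29, adjusted p = 0.0979). CCL19, CCL11, LIF and CCL2 also had lower estimates in the intima, with adjusted p-values of 0.0713, 0.166, 0.221 and 0.266. TNFRSF11B did not differ beyond its error (−0.07, adjusted p = 0.911).

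The 8 pairs come from 4 rabbits, so the layer p-values are too small if the pairs of a rabbit are not independent. With counts summed per rabbit and rabbit as a block, 3 members were called: IL15 (4.24, adjusted p = 0.0397), IL12RB2 (3.12, adjusted p = 0.0339) and IL6. Without rabbit 3, 7 members were called, 4 of the 8 together with IL1R1, CCL2 and IL10RB. Of the 8, 2 were called without rabbit 4, 5 without rabbit 5 and 2 without rabbit 6, with no other member. Without the BT pair of rabbit 3 alone, 6 of the 8 were called together with IL1R1, while IL17B and TNFRSF1B had adjusted p-values of 0.0552 and 0.0609. IL15 stayed called without each rabbit in turn. IL12RB2 was called without rabbits 3, 5 or 6 and had an adjusted p of 0.0689 without rabbit 4. The other 6 each lost the call without at least 2 of the rabbits: without rabbit 3 for IL18, CX3CL1, TNFSF10 and TNFRSF1B, without rabbit 4 for all but IL18, without rabbit 5 for IL18, CX3CL1 and IL17B, and without rabbit 6 for all 6. Their adjusted p-values in these fits ran from 0.0578 to 0.201. The share of all genes called in these alternative layer fits is not given here.

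**Figure D5:**
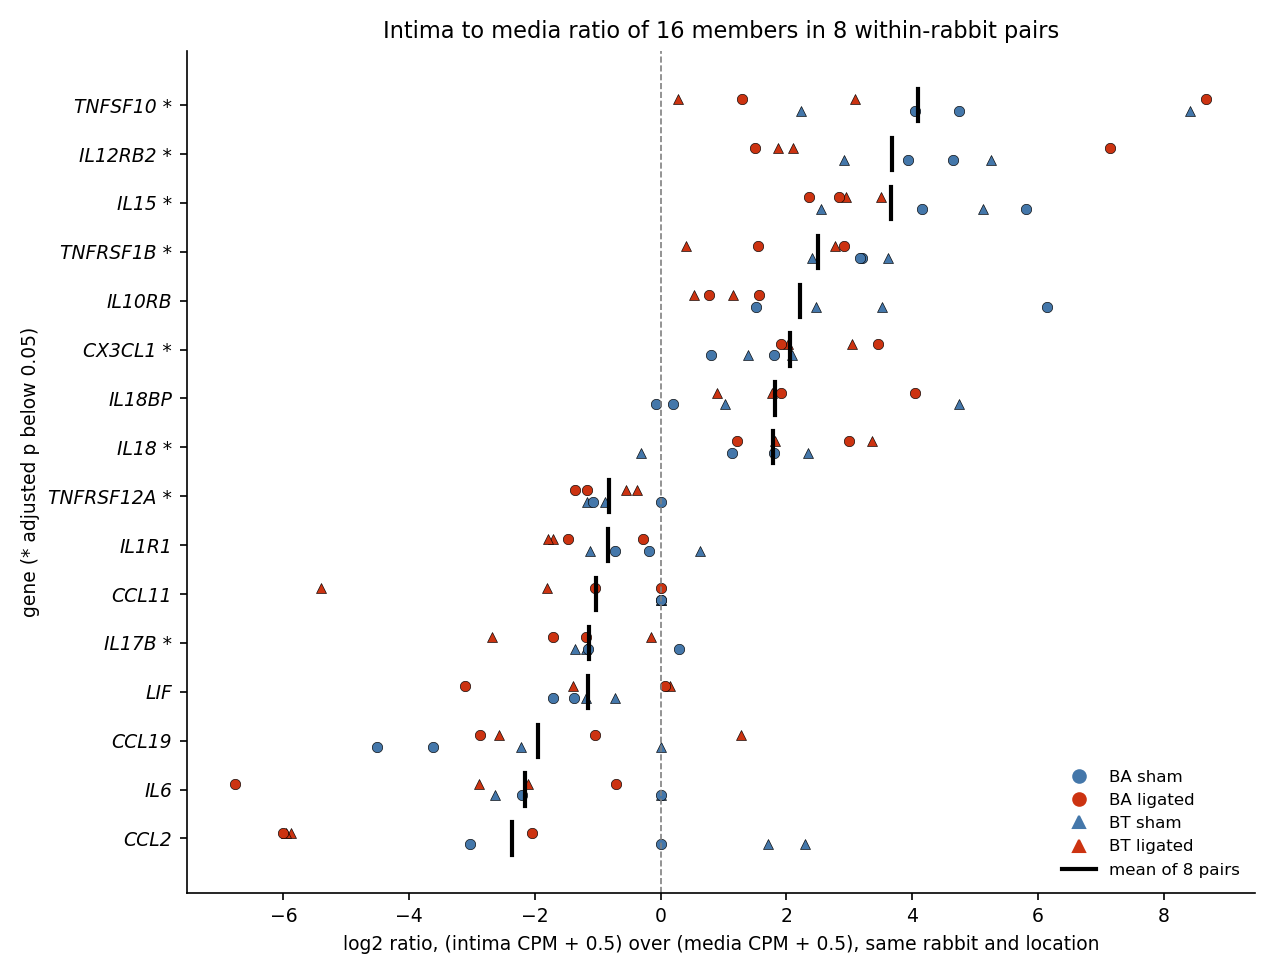
Log2 ratio of intima to media, with 0.5 CPM added to both, in the 8 pairs of a rabbit and location for 16 members, with a bar at the mean and an asterisk where the adjusted p was below 0.05. IL15, IL12RB2 and TNFSF10 lie above 0 in all 8 pairs, and IL6 and CCL11 each have 1 pair far below the others.

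Locations were compared next, BT against BA in the same rabbits with both flow groups together. No member was called in either layer, of 51 tested in the intima and 44 in the media, and 0% of all genes were. At an unadjusted p below 0.05 there were 2 members in the intima (2.97% of all genes) and 4 in the media (4.01%), and DESeq2 called 1 in each, CSF2 in the intima and CXCL5 in the media. In the intima, the members with the smallest unadjusted p-values were CXCL5 and CCL19, chemokines with counts in few libraries. CXCL5 was at least 15.0-fold higher in the BT intima and at least 17.3-fold higher in the BT media, resting on the 3 ligated libraries given above. CCL19 was at least 32.3-fold higher in the BT intima, resting on rabbits 3 and 5. LIF (2.98, SE 1.37), IL17RD (−1.69, SE 1.10) and TNFRSF25, a receptor of T cells and other cells (−1.28, SE 0.88), had log2 differences in the intima at an adjusted p of 1. In the media, IL1R2, the decoy receptor of IL1, was at 16.9 and 3.67 CPM in the BA of rabbits 3 and 6 and at 0 in the other 6 libraries. TNFRSF12A had estimates at the BT of −0.49 (SE 0.31, adjusted p = 1) in the intima and −0.62 (SE 0.22, adjusted p = 0.997) in the media, where IL13RA1, a chain of the IL4 and IL13 receptors, was 1.47-fold higher at the BT (adjusted p = 0.997).

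Differences in the change with flow between locations and between layers were tested as interaction terms, and no member passed in any of the 4 fits. All genes were called at 0%, except for 0.0213% in the fit of location by flow in the media. At an unadjusted p below 0.05 there were 5 of 61 members for location in the intima (3.12% of all genes), 5 of 49 for location in the media (6.43%), 5 of 55 for layer in the BA (2.65%) and 3 of 56 for layer in the BT (5.92%). DESeq2 called 3, 0, 1 and 1 members, with no share of all genes given beside them.

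The members with the smallest unadjusted p-values included CCL2, given above, and the following. IL18BP in the media changed more at the BT than in the BA by 4.88 on the log2 scale (SE 1.39, adjusted p = 0.621), and was called without rabbit 3 (adjusted p = 0.011) and with all genes with a count tested (adjusted p = 0.0105). CXCL8 and IL12A in the intima differed in opposite directions between locations, both at an adjusted p of 1 and with groups at 0 counts, so that their fitted sizes have no meaning as folds. IL15 in the BA had an interaction of −7.69 (SE 1.69, adjusted p = 1), no measure of a fold because the sham media libraries held no count. Its mean after ligation was at least 26.6-fold higher in the BA media and 3.46-fold higher in the BA intima. CXCL9 by location in the media (adjusted p = 0.751), the TNFSF12-TNFSF13 symbol by layer in the BA (adjusted p = 1) and IL6R by layer in the BT (−2.24, adjusted p = 0.838) also missed the threshold.

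Genes that act downstream of these receptors were read from lists outside the module. In the list of NF-kB components and feedback genes, 26 of 29 were in the table. BIRC3, an NF-kB target and inhibitor of cell death, was called in the BT media, at 25.0 and 17.7 CPM in sham and 79.5 and 114 CPM in ligated libraries (log2 change 2.20, SE 0.48, adjusted p = 0.0359). Without rabbit 5 its adjusted p was 0.0763 and without rabbit 6 it was 0.36. In the BA media it was at 26.6 and 9.65 CPM in sham and 142 and 129 CPM in ligated libraries (2.91, SE 0.57, adjusted p = 0.0622). In the BT media 5 of 24 list genes tested had an unadjusted p below 0.05, all higher, where 16% of all genes did in either direction, and the list's median log2 change was 0.55 beside 0.03 for all genes. In the BA media the medians of the list and of all genes were −0.19 and −0.15. They were 0.80 and −0.13 in the BT intima, and −0.12 and −0.10 in the BA intima. No gene of the list was called with flow in the other 3 tissues.

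Between layers, NFKBIA, NFKBIZ, TRAF1 and IRAK2, 4 of 25 list genes tested, were higher in the intima, where 4.85% of all genes were called as higher. NFKBIA, the inhibitor that NF-kB itself induces, had a log2 difference of 0.93 (SE 0.16, adjusted p = 0.00443). Its adjusted p was 0.0513 without rabbit 4. NFKBIZ (1.24), TRAF1 (1.62) and IRAK2 (2.78) each lost the call without rabbit 4, at adjusted p-values of 0.133, 0.262 and 0.128, and without rabbit 6, at 0.0611, 0.186 and 0.074. TRAF1 also lost it without rabbit 3, at 0.126, and NFKBIZ without rabbit 5, at 0.0703. With counts summed per rabbit, NFKBIA was called at 0.0402 and the other 3 were not. Of the 10 endothelial adhesion and cytokine-responsive genes, 9 were tested between layers and 4 were higher in the intima, beside the same 4.85% of all genes: VCAM1 (2.93, SE 0.35, adjusted p = 0.000963), ICAM2 (3.93, SE 0.66, adjusted p = 0.0046), PTGS2 (3.15, SE 0.45, adjusted p = 0.00208) and NFKBIA, which is also in the NF-kB list. VCAM1, which binds leukocyte integrins, and PTGS2 (cyclooxygenase 2) stayed called without each rabbit in turn, and ICAM2 had adjusted p-values of 0.0508 without rabbit 4 and 0.0509 without rabbit 6. None of these genes was called with flow. The endothelial marker sums given above are higher in the intima as well.

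Of 18 JAK-STAT and SOCS genes, 15 were in the table and none was called in any of the 11 edgeR fits, with 0 to 3 genes per fit at an unadjusted p below 0.05. The symbols JAK3, STAT2 and SOCS3 were not analysed here, so their levels are not known. Their median log2 change with flow was −0.90 in the BA media beside −0.15 for all genes, and −0.23 in the BT media beside 0.03. Of 45 related ligands and receptors outside the symbol rule, 33 were in the table. CD74, the invariant chain of class II antigen presentation and a receptor of the cytokine MIF, fell in the BA media, from 171 and 186 CPM in sham to 26.4 and 12.1 CPM in ligated libraries (log2 change −3.23, SE 0.50, adjusted p = 0.0359). It was not called in the fits that left out 1 rabbit, with adjusted p-values of 0.145 to 0.509. Between layers, KITLG (stem cell factor) was higher in the intima (2.68, SE 0.59, adjusted p = 0.0154, and 0.0585 without rabbit 5). NGFR was lower there (−4.05, SE 1.15, adjusted p = 0.0479), with adjusted p-values of 0.0725 to 0.191 in the fits that left out 1 rabbit.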

How the data were processed

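The authors made SMART-Seq v4 cDNA from microdissected tissue, sequenced Nextera libraries as 75-cycle single reads on a NextSeq500 without trimming, aligned them to OryCun2.0 with STAR, kept unique reads and counted exons with featureCounts 1.6.2 (SAMtools 1.9, per the labels and the study's methods). They deposited unnormalized counts, 1 row per gene symbol. An entry without a symbol, 13.8 to 18.7% of counts, was left out of library sizes and tests. Amplified reads without molecular identifiers are not independent molecules.

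Counts were analysed in R 4.3.3 with edgeR 4.0.16 (glmQLFit and glmQLFTest, legacy = TRUE, TMM, mean above 1 CPM in at least 1 group compared), with Benjamini-Hochberg adjustment over all genes tested and a threshold of 0.05. Flow was fitted in each tissue, layer with the 8 pairs as blocks, location with flow as a term, and interactions on 8 libraries. SE is the log2 change divided by the square root of F. DESeq2 1.42.0 (with limma 3.58.1 loaded by edgeR) and other scalings, filters and sample sets were alternatives, and the layer fit without the BT pair of rabbit 3 and edgeR's exact test were added after seeing the data. The fits were tested on simulated data with 200 genes changed by 3 on the log2 scale. For flow, false calls were 16 of 127 in the BT media and 10 of 113 in the BA media. They were 23 of 90 in the BT intima, 14 of 110 in the BA intima, and 2 of 135 for layer. The share of changed genes recovered ran from 4.5% (location by flow in the intima) to 66.5% (layer). Any member could be named. Always named were called members, those with the smallest unadjusted p in each fit (4 in each direction for flow, 8 for layer, 3 for location, 2 for interactions), the 3 with the highest mean CPM in each role class, and IL15. Members and lists were chosen with earlier results of these data known. Symbols were used as deposited, and 93 of the 96 members matched RefSeq symbols. The check of shared rabbit numbers, by the correlation of deviations from group means, gave −0.0348 to 0.196 between layers of a rabbit and location and 0.0552 to 0.394 between locations of a rabbit and layer. The pairing itself comes from the labels, which give the same rabbit for these samples. Replicates of a group came from separate rabbits and differed by more than sampling noise (chi-square per degree of freedom 22.5 to 456).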

Additional observations from a re-analysis of the deposited data

Results flagged for a closer look

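Among the 16 members whose within-rabbit log2 ratios of intima to media were examined over 8 pairs, 2 had a single pair that stood apart by the gap to its nearest neighbour. IL6 had a log2 ratio of −6.76 in the BA of ligated rabbit 5, where the intima held no count and the media 53.8 CPM, and its next lowest ratio was −2.89. CCL11 had a log2 ratio of −5.40 in the BT of ligated rabbit 6, where the intima held no count and the media 20.6 CPM, and its next lowest ratio was −1.81. Neither layer held a count in 5 of the 8 pairs of CCL11 and in 2 of those of IL6, which puts these ratios at exactly 0, and with no intimal count the size of a ratio depends on the 0.5 CPM added to each value. The gaps are therefore given as descriptions. No chance rate is given for them, because the ratios include exact values of 0 and the pairs share rabbits. The 16 members were also chosen from the layer fit of the same values. In the main edgeR fits, no member's change with flow differed between locations or layers past the adjusted threshold. DESeq2 and other alternative fits called some members, as given above.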

How the results depend on the processing

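Each fit was repeated with RLE scaling, library size alone, all genes with a count, filterByExpr, DESeq2, the newer edgeR setting (legacy = FALSE) and without each rabbit. Of 953 repeated values for named genes, 802 kept direction and side of the threshold, 81 passed it newly, 70 lost it and none reversed. With all genes with a count tested, members called with flow numbered 3 (BA) and 8 (BT) in the intima and 6 each in the BA and BT media. DESeq2 called 3, 9, 5 and 4 in that order. A fit over all 16 libraries called 1 member in the intima of the BT, 1 in the media of the BA and 0 in that of the BT, the fit over the 8 libraries of the layer called 3 in the BA media, and the exact test called 6 in the BT intima. RLE scaling and filterByExpr each left 1 of 2 in the BT media, IL6. Without 1 replicate, the counts ran from 0 to 3 in the BA intima, from 1 to 9 in the BT media, and stayed at 0 in the BT intima and BA media. For layer, DESeq2 called 15, legacy = FALSE 13, counts summed per rabbit with rabbit as replicate block 3, and the fits without 1 replicate 2 to 7. With no replicate block the same 8 members were called. For location, DESeq2 called 1 in each layer and all genes with a count 1 in the media. For location by flow, all genes with a count gave 1 in each layer, DESeq2 3 in the intima, and the fits without 1 replicate 0 to 1 in the media, IL18BP without rabbit 3. For layer by flow, all genes with a count gave 2 in the BA and 1 in the BT, and DESeq2 1 in each. Rabbit as a replicate block changed no other call, and no paired analysis of flow was possible because sham and ligated rabbits are different animals. The share of all genes called in these repeated fits is not given here, so the counts are not read as a result about the members. The causes of these differences were not tested.

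Scaling by library size alone moved the median of all genes by −0.134 in the BA media, 0.144 in the BT media, 0.218 for layer, 0.281 for location by flow in the media, and 0.234 and −0.136 for layer by flow in the BA and BT. Of 216 group means, 201 moved by less than 1 SD under that scaling. Depth limits the media most, where 3 counts are up to 1.58 CPM, and 2 rabbits per flow group limit every test of flow.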

Other observations

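Members above 3 counts in 1 library only were found in 9 of the 16 libraries. Outside the BT intima of rabbit 3, they included IL12B, a subunit of IL12 and IL23, with 32 counts in the BA intima of rabbit 5, and TNFRSF9 with 15 in the BA intima of rabbit 6. Only the BA intima of rabbit 4 passed 3 counts for CCR9, with 40 counts, CCL22, with 8, and TNFSF15, with 6. CSF2, with 243 counts, and IL23A, with 5, passed in the BT intima of rabbit 5 only. In the media, IL5 had 14 counts in the BA of rabbit 3, IL17D 9 in the BA of rabbit 4 and IL1RAPL1 5 in the BT of rabbit 3. Other libraries held at most 3 counts of each. IL1B, a central inflammatory interleukin, had counts in 4 libraries, all sham, at 1.52 and 2.69 CPM in the BA intima, 2.84 CPM in the BT intima of rabbit 3 and 6.41 CPM in the BA media of rabbit 3. IL34, a ligand of the CSF1 receptor, had counts in 15 of the 16 libraries, at 39.6 CPM in the BT intima of rabbit 3 and 0 to 15.0 CPM in the others. IL16 stood at 0 to 9.88 CPM in the intima and 3.41 to 14.4 CPM in the media.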
